A study of Homo sapiens with 4 samples.

Results

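The receptor tyrosine kinases other than MET and the ERBB receptors were followed in Hs746T, an established line of human gastric carcinoma cells that carries both an exon-skipping mutation and an amplification of MET. The set held 41 receptor genes, taken by name across the AXL, RON, FGF, insulin, PDGF, VEGF, Eph, discoidin, RET, TRK, ROR, ALK, TIE, RYK and PTK7 families, out of 19736 genes named on the array. Each of the 41 genes had at least 1 probe, and together they had 59. Total RNA was measured on 4 single-colour Agilent arrays, 1 for each of DMSO, the MET inhibitor PHA665752, scrambled (sc) siRNA and MET siRNA. All groups were the same cell line, maintained in DMEM with fetal bovine serum. The siRNA groups were transfected with Lipofectamine in Opti-MEM and then returned to complete medium. The cells of the 2 siRNA groups were harvested 48 h after transfection, while the dose and duration of PHA665752 for the arrays are not given in the sources used here. The inhibitor was set against DMSO and MET siRNA against sc siRNA. In addition, sc siRNA was set against DMSO as a measure of how far the control arrays differ. That difference also holds the transfection, the scrambled siRNA and the DMSO, which cannot be told apart from differences between arrays.

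Receptor tyrosine kinases bind a ligand outside the cell, pair up, and phosphorylate each other and recruited adaptors inside it, which feeds the RAS-MAPK, PI3K-AKT and PLCγ pathways. MET and these receptors share many of those adaptors. In tumour cells that depend on MET, other receptors such as AXL, the FGF receptors, the insulin receptors and the Eph receptors are known to signal beside it, and changes in their amount are studied as a way in which cells adapt to MET inhibitors.

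With 1 array per condition no value below has a replicate error or a test, and precision is limited by how few arrays there are. The level of a gene is the log2 signal of its probe relative to the 75th percentile of its array, and a ratio is the difference between 2 such levels. The noise between spots of an array corresponded to an SD of 0.0780 for a log2 ratio of single spots, which covers neither cultures nor labelling. Past 2-fold means a log2 ratio beyond 1 in size. Where a probe was well above background on 1 array of a pair only, the ratio is a bound. The MET probe itself had processed signals of 221451 with DMSO and 100492 with PHA665752, and 190010.0 with sc siRNA and 77854 with MET siRNA, so that its transcript was lower after both treatments. Of 8 epithelial markers, 6 were well above background on every array, CDH1 on 3 arrays and ELF3 on none, and of 8 mesenchymal markers the 7 with a value on each array were well above background throughout.

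Of the 41 receptors, 28 were well above background on all 4 arrays. These were AXL, TYRO3, MERTK, MST1R, FGFR1, FGFR4, INSR, PDGFRB, KIT, CSF1R, EPHA2, EPHA3, EPHA4, EPHA5, EPHA7, EPHB2, EPHB3, EPHB4, DDR1, DDR2, RET, NTRK2, NTRK3, ROR1, ROR2, ALK, LTK and RYK. A further 8 were well above background on no array, namely FGFR3, PDGFRA, FLT1, KDR, FLT4, EPHA1, EPHB1 and EPHB6, so that all 3 VEGF receptors were among them. FGFR2, TEK, TIE1 and PTK7 reached that mark on some arrays only. IGF1R, the receptor of insulin-like growth factors, had a single probe whose spot was marked as an outlier on the PHA665752 array. Its signals were 31.8 with DMSO, 28.3 under sc siRNA and 45.3 under MET siRNA, a siRNA log2 ratio of 0.63, and no inhibitor ratio was formed.

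**Figure D1:**
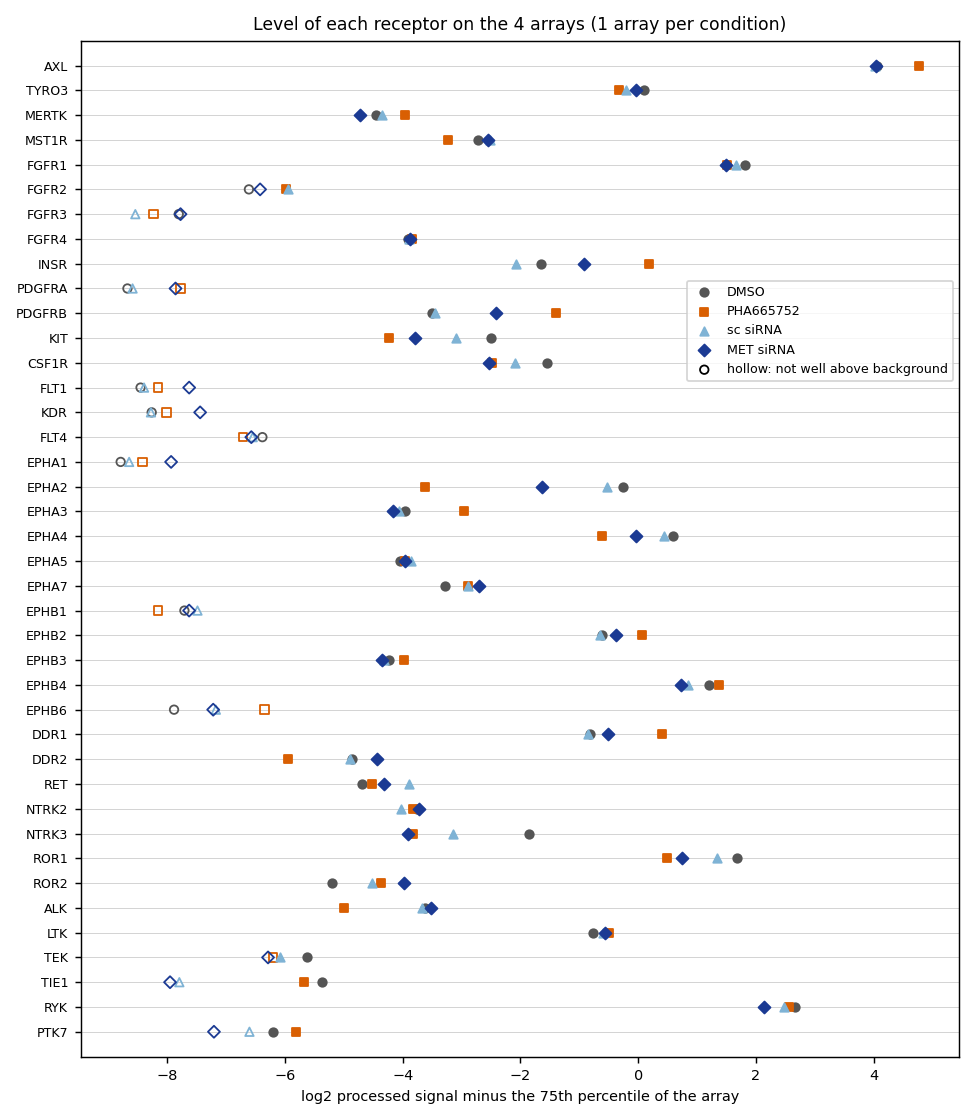
Level of 40 receptors, one row per gene, as log2 signal relative to that array's 75th percentile; each symbol is 1 array, hollow where the probe was not well above background, and IGF1R is left out for want of a value on each array. Symbols compare arrays within a row, since probes differ in brightness. The PHA665752 square stands apart from the others for EPHA2, INSR, PDGFRB and DDR1, and the 8 receptors well above background on no array are hollow throughout.

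More receptors were past 2-fold with PHA665752 than with MET siRNA. A ratio of PHA665752 over DMSO could be formed for 32 receptors, of which 3 were higher past 2-fold (INSR, PDGFRB and DDR1), 7 were lower (EPHA2, NTRK3, KIT, ALK, EPHA4, ROR1 and DDR2) and 22 stayed within 2-fold. The counts rest on the probe that stood for each gene, and another NTRK3 probe was at 0.99 with the inhibitor. The share higher was 9.38%, beside 13.1% of all named genes with a ratio, and the share lower was 21.9%, beside 8.03% of all. The median log2 ratio of the receptors was 0.070 and that of all genes 0.075. The receptor median turned to -0.18 with the 50th percentile and with quantile normalization and to -0.024 with scaling to the probes well above background, so that the sign of the receptor median depended on the scaling. IGF1R, whose probe had no value with PHA665752, was left out of the siRNA and control counts. With MET siRNA over sc siRNA, 28 receptors were counted, and INSR and PDGFRB were higher and EPHA2 lower past 2-fold. These were 7.14% and 3.57% of the receptors, beside 2.04% and 0.696% of all genes. The siRNA median was -0.029 for the receptors and -0.017 for all genes. Between the control arrays 0 of 32 receptors were higher and 1, NTRK3, was lower past 2-fold, 3.12% beside 1.16% of all genes lower and 2.89% higher.

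The inhibitor and siRNA comparisons share no array. Of the 28 receptors with both ratios, 18 (64.3%) had the same sign in both, beside 69.6% of 13437 genes of all kinds. Of the 10 receptors past 2-fold with PHA665752, 8 had a siRNA ratio of the same sign (80.0%), beside 81.3% of all genes past 2-fold with the inhibitor. INSR, PDGFRB and EPHA2 were past 2-fold the same way in both comparisons, 3 of the 28 receptors beside 1.16% of all genes, and 0 receptors were past 2-fold in opposite ways. In size, the siRNA ratio exceeded the difference between the control arrays for 14 of 28 receptors, beside 46.5% of all genes, and the control comparison shares its DMSO array with the inhibitor pair and its sc siRNA array with the siRNA pair.

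INSR encodes the insulin receptor, which signals mainly through the IRS adaptors and PI3K. Its probe (A_33_P3335725, NM_000208) had signals of 315 under DMSO, 972 under PHA665752, 197 under sc siRNA and 454 under MET siRNA. Each treated array was above both control arrays. The log2 ratio was 1.84 under the inhibitor (3.58-fold) and 1.16 under the siRNA (2.23-fold), against -0.42 between the controls. The siRNA ratio fell short of 2-fold with scaling to the probes well above background (0.86) and with normexp background correction (0.85).

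PDGFRB encodes the β receptor of platelet-derived growth factor, best known in fibroblasts and pericytes. Its probe (A_23_P421401, NM_002609) had signals of 87.6 under DMSO, 326 under PHA665752, 75.5 under sc siRNA and 160 under MET siRNA. Here too each treated array was above both control arrays, and the controls themselves differed by a log2 ratio of 0.039. The ratio was 2.11 under the inhibitor (4.32-fold) and 1.04 under the siRNA (2.06-fold), the latter being 0.74 under each of the 2 settings named for INSR. The related PDGFRA was well above background on no array. Of the 7 mesenchymal markers with a ratio, 3 were higher and 1 lower past 2-fold with the inhibitor (42.9% and 14.3%, beside 13.1% and 8.03% of all genes). For the inhibitor and the siRNA, COL1A1 was at 3.32 and 1.54, FN1 at 1.96 and 0.48, SPARC at 1.33 and 0.12 and TWIST1 at -1.24 and -0.12. Within 2-fold, ZEB2 was at 0.59 and 0.15, CDH2 at 0.26 and 0.10 and ZEB1 at -0.73 and -0.53. TWIST1 was at -0.58 with the inhibitor under normexp. The summed signal of the mesenchymal markers, not scaled between arrays, was 12238 under DMSO, 22960.0 under PHA665752, 9683 under sc siRNA and 11466 under MET siRNA. From DMSO to PHA665752, COL1A1 alone went from 771 to 6631, SPARC from 3024 to 6559 and FN1 from 1061 to 3564. Of the 7 epithelial markers with an inhibitor ratio, 0 were higher and 0 lower past 2-fold, with a median log2 ratio of 0.031. The unscaled summed signal of the epithelial markers was 132024 under DMSO, 80964 under PHA665752, 106820.0 under sc siRNA and 94010 under MET siRNA. The part of either marker list in the PDGFRB ratios was not tested.

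EPHA2 encodes the ephrin-A receptor known for its high amount in many carcinomas and for its regulation by the RAS-MAPK pathway. Its probe (A_23_P149281, NM_004431) had signals of 828 under DMSO, 69.5 under PHA665752, 578 under sc siRNA and 278 under MET siRNA. Both treated arrays were below both control arrays, and the PHA665752 array was the lowest. The log2 ratio was -3.36 under the inhibitor (10.3-fold lower) and -1.10 under the siRNA (2.15-fold lower), against -0.27 between the controls. With normexp the siRNA ratio was -0.90, and over all alternatives the inhibitor ratio lay between -3.61 and -2.33.

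The promoter windows of these 3 receptors are shown because their transcripts were the ones past 2-fold the same way with both treatments. Each runs from 250 bases before to 50 bases after the RefSeq start on GRCh38.p14, on the minus strand in each case, at chr19:7294365-7294664 for INSR, chr5:150155796-150156095 for PDGFRB and chr1:16156020-16156319 for EPHA2. Capitals mark matches on either strand to TGACGTCA (cAMP response element), TGANTCA (AP-1), GTAAACA (forkhead), GGGCGG (GC box) or CCAAT, and neighbouring GC box matches can share letters.
INSR: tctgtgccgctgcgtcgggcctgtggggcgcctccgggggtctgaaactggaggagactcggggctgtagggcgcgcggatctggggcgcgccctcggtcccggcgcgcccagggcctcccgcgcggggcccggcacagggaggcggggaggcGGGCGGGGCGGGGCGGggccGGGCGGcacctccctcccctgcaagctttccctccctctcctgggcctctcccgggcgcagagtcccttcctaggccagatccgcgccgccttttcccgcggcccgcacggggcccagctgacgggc
PDGFRB: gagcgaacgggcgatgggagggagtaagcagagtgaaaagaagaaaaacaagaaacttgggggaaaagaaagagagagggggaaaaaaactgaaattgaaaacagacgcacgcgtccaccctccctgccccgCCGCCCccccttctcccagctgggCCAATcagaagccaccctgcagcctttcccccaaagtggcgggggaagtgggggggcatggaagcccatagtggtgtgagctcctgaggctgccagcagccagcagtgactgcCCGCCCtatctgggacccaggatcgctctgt
EPHA2: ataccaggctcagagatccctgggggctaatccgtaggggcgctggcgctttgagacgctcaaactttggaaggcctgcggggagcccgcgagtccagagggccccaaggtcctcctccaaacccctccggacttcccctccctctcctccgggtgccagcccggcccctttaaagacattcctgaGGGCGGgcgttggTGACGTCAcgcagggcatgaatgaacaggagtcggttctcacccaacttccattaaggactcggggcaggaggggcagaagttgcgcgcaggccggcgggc
INSR held 4 GC box matches and none of the other letters. PDGFRB held 2 GC box matches and 1 CCAAT. EPHA2 held 1 GC box match and 1 TGACGTCA. Over 35116 RefSeq promoter windows, TGACGTCA occurred in 1.85%, TGANTCA in 7.71%, GTAAACA in 3.42%, GGGCGG in 45.0% and CCAAT in 34.6%. Of the 39 receptors with a window in the table, 2 (EPHA2 and FLT1) held TGACGTCA, 5 held TGANTCA, 3 held GTAAACA, 33 held GGGCGG and 17 held CCAAT. A receptor counted here if any window of the gene matched, whereas the shares above are per window, so the 2 are not like measures. These matches describe the letters only.

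Among the TAM receptors, which bind GAS6 and protein S, none passed 2-fold. AXL (A_23_P208389) had signals of 16472 under DMSO, 23429 under PHA665752, 13572 under sc siRNA and 14147 under MET siRNA, so that the PHA665752 array alone stood out. Its log2 ratio was 0.72 with the inhibitor, 0.013 with the siRNA and -0.026 between the controls. TYRO3 stood at -0.43 and 0.17, with -0.32 between the controls, and MERTK at 0.48 and -0.37 on signals between 32.5 and 54.6. MST1R (RON), the closest relative of MET, had signals of 150.0 under DMSO, 91.0 under PHA665752, 145 under sc siRNA and 146 under MET siRNA. The inhibitor array was the low one, with a log2 ratio of -0.51, and the siRNA ratio was -0.032.

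The FGF receptors bind fibroblast growth factors together with heparan sulphate, and FGFR1 and FGFR4, the ones well above background on every array, stayed within 2-fold. FGFR1 had signals of 3501 under DMSO, 2433 under PHA665752, 2637 under sc siRNA and 2405 under MET siRNA, and log2 ratios of -0.31 and -0.18. The difference between its controls was -0.16, nearly as large as the siRNA ratio. FGFR4 had ratios of 0.061, 0.014 and 0.017 in the inhibitor, siRNA and control comparisons, on signals between 56.0 and 66.0. FGFR3 was well above background on no array, and the FGFR2 probe that stood for the gene only with PHA665752 and sc siRNA, at signals of 13.5 and 13.4, which gave no siRNA ratio. A second FGFR2 probe (A_24_P206624) was well above background with MET siRNA only, and its bound was at least 7.84-fold higher than with sc siRNA.

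KIT, the receptor of stem cell factor, and CSF1R, that of macrophage colony-stimulating factor, belong to the PDGF receptor family and are best known in blood cells. KIT (A_23_P110253) had signals of 176 under DMSO, 45.4 under PHA665752, 97.5 under sc siRNA and 62.0 under MET siRNA. The DMSO array was the highest and the PHA665752 array the lowest. The log2 ratio was -1.74 under the inhibitor and -0.70 under the siRNA, the latter close to the -0.60 between the controls, and the inhibitor ratio was -0.92 with normexp. CSF1R had signals of 339, 152, 195 and 149 in the same order and log2 ratios of -0.94, -0.44 and -0.55 for inhibitor, siRNA and controls, so that DMSO again stood highest. CSF1R was lower past 2-fold with the inhibitor under the 50th percentile (-1.18), quantile normalization (-1.11) and the median of probes well above background (-1.03). Of the blood cell markers, PTPRC, CD14, CD68 and TYROBP were well above background on each array and CD3E on none. The markers PTPRC, CD14, CD68 and TYROBP had inhibitor ratios of -0.031, -0.094, 0.15 and -0.38. The summed signal, not scaled between arrays, of the list was 7882 under DMSO, 7457 under PHA665752, 12076 under sc siRNA and 12403 under MET siRNA, most of it from CD68, and its part in these ratios was not tested.

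The Eph receptors bind ephrins on neighbouring cells, and 8 of the 11 followed here were well above background on every array. Besides EPHA2, only EPHA4 passed 2-fold. EPHA4 (A_23_P108501) had signals of 1499 under DMSO, 558 under PHA665752, 1132 under sc siRNA and 836 under MET siRNA, so both treated arrays were below both control arrays. Its log2 ratios were -1.21 with the inhibitor, -0.48 with the siRNA and -0.15 between the controls. EPHA3 was higher with the inhibitor, from a signal of 63.9 with DMSO to 110 with PHA665752, and at a log2 ratio of 0.999 it lay just short of 2-fold. Its siRNA ratio was -0.10. EPHB2 had an inhibitor ratio of 0.67 and a siRNA ratio of 0.26, while its other probes had siRNA ratios of 0.016 and -0.031. EPHA5, EPHA7, EPHB3 and EPHB4 had inhibitor ratios between 0.079 and 0.38 and siRNA ratios between -0.12 and 0.19 at the probes that stood for them. The second probe of EPHA7 had ratios of -0.030 and -0.53, and that of EPHB4 0.069 and -0.27.

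DDR1 and DDR2, the discoidin domain receptors, bind collagen, and with the inhibitor DDR1 was higher and DDR2 lower. DDR1 (A_23_P93311) had signals of 564 under DMSO, 1129 under PHA665752, 458 under sc siRNA and 601 under MET siRNA. The PHA665752 array was the highest. The log2 ratio was 1.22 with the inhibitor and 0.34 with the siRNA, against -0.046 between the controls, and the inhibitor ratio was 0.97 with the 50th percentile. DDR2 had signals of 34.1, 13.8, 28.0 and 39.7 in the same order, the lowest with PHA665752 and the highest with MET siRNA. Its log2 ratio was -1.09 under the inhibitor and 0.46 under the siRNA. These signals are close to the lowest signals well above background, which were between 10.2 and 17.4, and with normexp the inhibitor ratio of DDR2 was -0.16.

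ROR1, a receptor of WNT5A, had signals of 3166 under DMSO, 1195 under PHA665752, 2099 under sc siRNA and 1430 under MET siRNA at probe A_23_P12363. Both treated arrays were below both control arrays. The log2 ratios were -1.19, -0.60 and -0.34 for inhibitor, siRNA and controls, while the median over both ROR1 probes was -0.83 with the inhibitor. ROR2 had positive ratios throughout, of 0.84, 0.55 and 0.68, on signals between 26.8 and 54.6. ALK, best known as a fusion oncogene and as a receptor of the developing nervous system, had signals of 80.6 under DMSO, 26.8 under PHA665752, 65.4 under sc siRNA and 75.2 under MET siRNA. The PHA665752 array alone was low, at a log2 ratio of -1.38, and the siRNA ratio was 0.15. With normexp the inhibitor ratio of ALK was -0.40, and the siRNA ratio was -0.15 with scaling to the probes well above background. Its relative LTK had ratios of 0.28, 0.041 and 0.17.

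The neurotrophin receptors NTRK2 and NTRK3 and the GDNF-family receptor RET serve neurons. NTRK3, at the probe that stood for the gene (A_33_P3322814, NM_001007156), had signals of 275 under DMSO, 60.3 under PHA665752, 93.7 under sc siRNA and 56.9 under MET siRNA. The DMSO array stood alone above the other 3. The log2 ratios were -1.97 with the inhibitor and -0.77 with the siRNA, but -1.30 between the controls, larger than the siRNA ratio. NTRK2 had ratios of -0.072, 0.30 and -0.27, and RET of 0.17, -0.42 and 0.79. Among the TIE receptors of endothelium, TEK was well above background with DMSO (20.1) and sc siRNA (12.3) and TIE1 with DMSO (23.8) and PHA665752 (16.8). Of 6 endothelial markers, CLDN5 had no probe with a value on each array, and ERG and EMCN were well above background on no array. Of the 3 with a ratio, 1 was higher and 1 lower past 2-fold with the inhibitor (33.3% each way). The shares of all genes were 13.1% and 8.03%. With the siRNA 1 of 3 was higher and 0 lower, beside 2.04% and 0.696% of all genes. PECAM1 had ratios of -2.39 and -0.44, CDH5 of -0.21 and -0.091, and VWF of 2.77 and 1.13, which were 1.56 and 0.55 with normexp. The unscaled summed signal of that list was 1973 under DMSO, 563 under PHA665752, 1156 under sc siRNA and 955 under MET siRNA. Most of it came from PECAM1, at 1846 under DMSO and 304 under PHA665752. The part of these markers in the TIE values was not tested. RYK and PTK7, Wnt-binding receptors without an active kinase, had inhibitor ratios of -0.088 and 0.38.

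**Figure D2:**
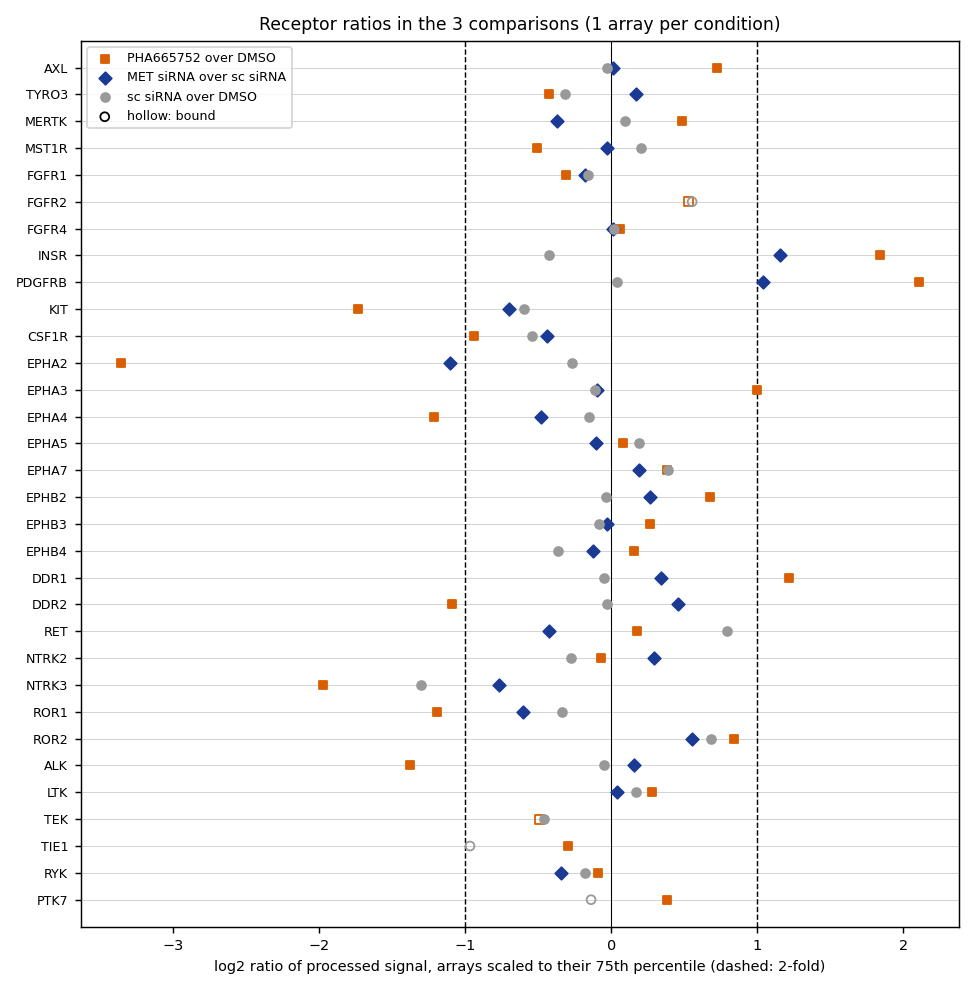
Log2 ratio of processed signal for the 32 receptors with an inhibitor ratio, one row per gene, in 3 comparisons of 1 array each; hollow symbols are bounds and dashed lines mark 2-fold. EPHA2 lies farthest to the left with PHA665752 (-3.36) and PDGFRB farthest to the right (2.11), and INSR, PDGFRB and EPHA2 are the rows in which both treatments lie past 2-fold.

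Several probes stood for 14 of the receptors, and where more than 1 was well above background they mostly went the same way with the inhibitor. The 3 EPHB2 probes had inhibitor ratios of 0.67, 0.75 and 0.91, and the 2 DDR1 probes 1.22 and 1.39. At a second KIT probe (A_33_P3303245) the signal was 27.6 with DMSO and not well above background with PHA665752, which bounds the ratio at -0.95, or at least 1.93-fold lower. NTRK3 had the widest difference between probes. Its probe for NM_002530 (A_33_P3260134) had signals of 36.7 under DMSO, 62.9 under PHA665752, 29.2 under sc siRNA and 28.7 under MET siRNA. There the PHA665752 array was the highest, and the ratio was 0.99 with the inhibitor, -0.073 with the siRNA and -0.075 between the controls. The NTRK3 probes thus differed by 2.96 in their inhibitor log2 ratio, and the median over them was -0.49. They were designed on different transcript accessions of the gene. NTRK2 and EPHA7 also had probes of opposite sign, differing by 0.48 and 0.41, and the second EPHA7 probe (A_23_P7835) was 2.19-fold higher with sc siRNA than with DMSO.

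**Figure D3:**
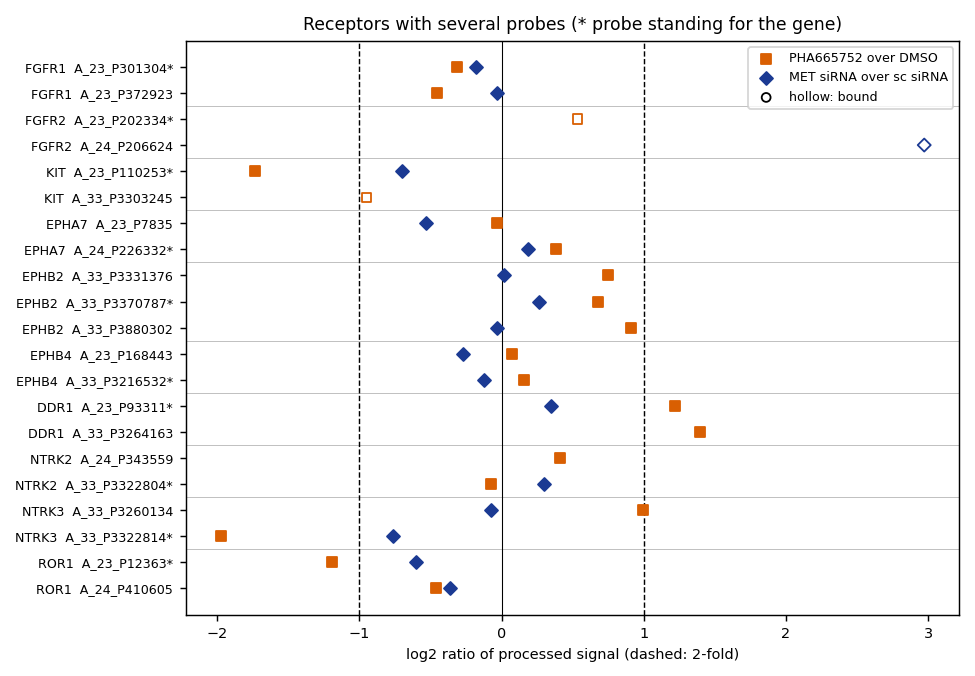
Log2 ratios at every probe with a ratio for the receptors with at least 2 such probes; the asterisk marks the probe that stood for the gene, hollow symbols are bounds, and dashed lines mark 2-fold. The NTRK3 probes lie on opposite sides with PHA665752 (-1.97 and 0.99), whereas those of DDR1 and EPHB2 lie together.

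Among the ligands of these receptors more genes were higher than lower with the inhibitor. Of 32 ligand genes with an inhibitor ratio in a list of 49, 10 were higher and 2 lower past 2-fold (31.2% and 6.25%, beside 13.1% and 8.03% of all genes). With MET siRNA, FGF9 alone of 28 was past 2-fold. It was higher, a share of 3.57% beside 2.04% of all genes higher and 0.696% lower. Of the 10 higher, EFNA1, NTF4, ANGPT1 and ALKAL1, at 1.05 to 1.14, fell short of 2-fold with the 50th percentile, with quantile normalization and with normexp, and PGF, 1 of the 2 lower at -1.45, was at -0.21 with normexp. FGF9, a ligand of FGFR3 and other FGF receptors, had signals of 145 under DMSO, 1114 under PHA665752, 101 under sc siRNA and 251 under MET siRNA, so both treated arrays were above both control arrays. Its log2 ratios were 3.15 and 1.27, the latter 0.97 with scaling to the probes well above background and 0.96 with normexp. MST1, the ligand of MST1R, had signals of 1010 with DMSO and 4830 with PHA665752 and log2 ratios of 2.47 and 0.50, although its probe could also bind transcripts of closely related copies of the gene. EFNB3, an ephrin for EphB receptors and EPHA4, stood at 2.43 and 0.81, and GAS6, the ligand of AXL, at 2.13 and 0.63 on a DMSO signal of 26.7. With normexp the inhibitor ratio was 1.53 for EFNB3 and 1.06 for GAS6. The other AXL family ligand, PROS1, named here after its values were seen, stood at 1.66 and 0.17. BDNF, the ligand of NTRK2, was higher with the inhibitor (2.41) and not with the siRNA (-0.38), with 0.91 between the controls. FGF1 was lower, at -1.92 and -0.40.

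Among 17 coreceptors and ligand-binding proteins with an inhibitor ratio, 2 were higher and 3 lower past 2-fold (11.8% and 17.6%, beside 13.1% and 8.03% of all genes), and 0 of 16 were so with MET siRNA, beside 2.04% and 0.696% of all genes. GFRA1, the coreceptor that presents GDNF to RET, had signals of 1260 under DMSO, 260 under PHA665752, 1347 under sc siRNA and 789 under MET siRNA. Both treated arrays were below both control arrays, at log2 ratios of -2.06 and -0.82, while the median over its probes was -1.24 with the inhibitor. FGFBP1, which releases stored FGFs, stood at -1.47 and -0.0045, with -0.96 between the controls, and NRP1, a coreceptor of VEGF, at -1.20 and -0.54. NGFR stood at 1.68 and 0.48 and IGFBP6 at 1.02 and 0.16. With normexp NGFR was at 0.80 and IGFBP6 at 0.93, and the median over the NRP1 probes was -0.93.

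Among 20 adaptors, 2 were higher and 2 lower past 2-fold with PHA665752 (10.0% each way, beside 13.1% and 8.03% of all genes). With MET siRNA 0 were so, beside 2.04% and 0.696% of all genes. CRKL was at -1.41 and -0.33, SHC3 at -1.07 and -0.62 and DOK1 at 1.03 and 0.42. DOK1 fell short of 2-fold under 4 alternatives, at values between 0.786 and 0.996, and SHC3 was at -0.997 with quantile normalization. SHC2 was well above background only after the treatments, and its bounds were at least 5.66-fold higher with the inhibitor and at least 1.80-fold higher with the siRNA. These bounds hold for the processed signal, and with normexp the SHC2 log2 ratio was 0.92 with the inhibitor and 0.18 with the siRNA. The common adaptors GRB2, SHC1, FRS2, IRS1 and IRS2, named here after their values were seen, stayed within 2-fold, with inhibitor ratios of -0.24, 0.21, 0.45, 0.50 and 0.20. Among 18 negative regulators, 2 were higher and 3 lower past 2-fold with PHA665752 (11.1% and 16.7%, beside 13.1% and 8.03% of all genes). With MET siRNA 0 passed 2-fold, beside the same shares of all genes as for the adaptors. SOCS1, an inhibitor of cytokine and receptor signalling, was at -2.83 and -0.28, with signals of 1901 with DMSO and 230 with PHA665752. SH2B3 was at -1.74 and -0.62 and GRB14, which inhibits the insulin receptor, at -1.23 and -0.47. The ubiquitin ligase CBLB was at 2.05 and 0.46, with 0.97 between the controls, and the phosphatase PTPRJ at 1.91 and 0.45. CBL itself, also named after its values were seen, was at -0.45 and -0.12. The members that passed 2-fold in the adaptor and negative regulator lists thus went both ways.

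**Figure D4:**
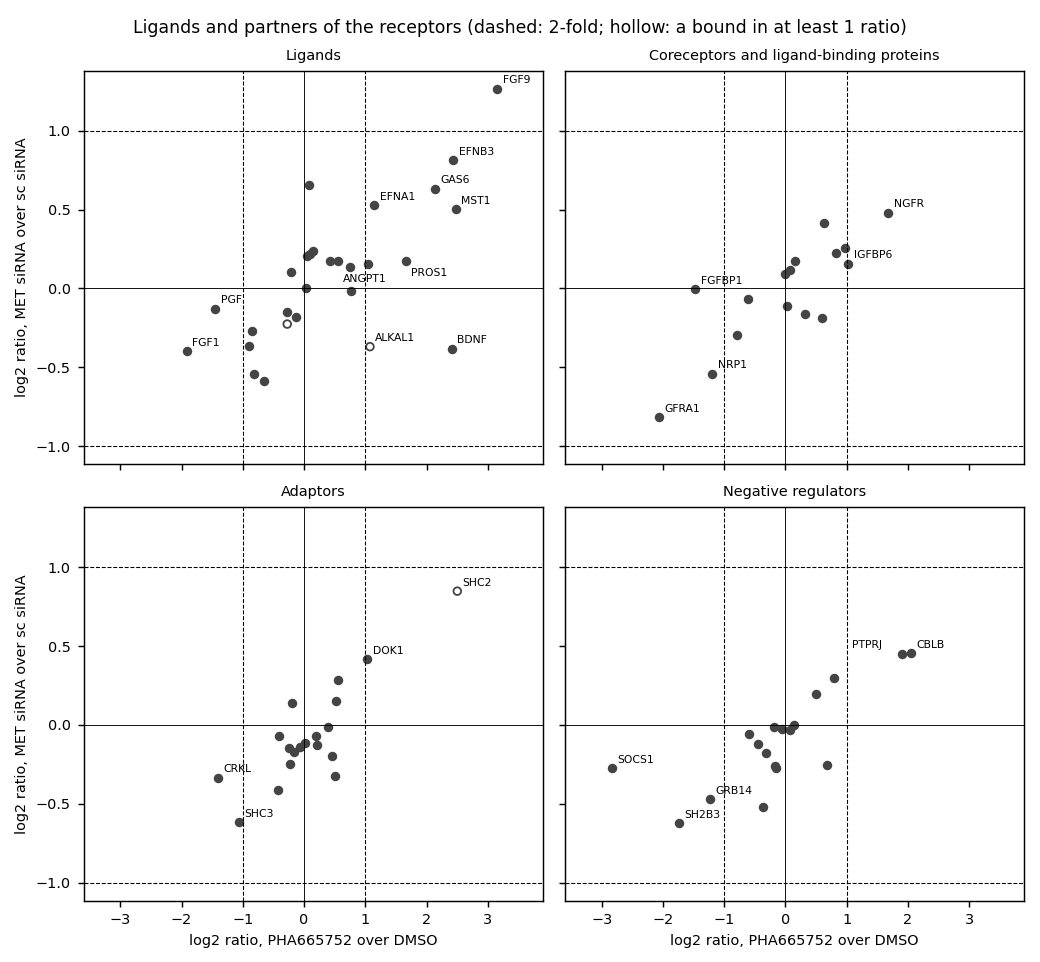
Each point is a ligand, coreceptor or ligand-binding protein, adaptor or negative regulator with a log2 ratio in both treatments, PHA665752 over DMSO on the horizontal axis and MET siRNA over sc siRNA on the vertical axis; names mark genes past 2-fold (dashed) and hollow points include a bound. FGF9 is the only point past 2-fold on both axes, and SOCS1 lies farthest to the left (-2.83).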

How the data were processed

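RNA of 4 Hs746T cultures was measured on 4 single-colour Agilent arrays, 1 per condition. The deposited scanner files hold the processed signal intensity of each spot with its quality marks, per the file headers from Feature Extraction 11.5.1.1, and the authors' methods name GeneSpring for normalization and for the selection of changed genes. From the deposited intensity, control spots and spots marked as outliers were left out, spots of a probe were averaged as log2 values, and each array was set relative to its 75th percentile. A probe counted as well above background where no more of its spots lacked the scanner's mark than carried it, and a ratio with 1 array below it was formed against the higher of the probe's signal and the lowest signal well above background. The probe with the highest mean level among those with a value on each array stood for its gene. Of 34127 probes, 67.4% were well above background under DMSO, 67.4% under PHA665752, 68.2% under sc siRNA and 61.1% under MET siRNA, none was saturated, and 75.5% carried a gene name. Outlier marks covered 1.92%, 2.21%, 1.69% and 5.58% of spots in that order. The spot noise came from 999 probes spotted 10 times.

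Alternatives were the 50th percentile, quantile normalization, the median of probes well above background, normexp on the median spot signal and local background with an offset of 50 (limma 3.58.1 in R 4.3.3), outlier marks ignored, 2 other filters on dim probes, the series matrix values and a median over each gene's probes. Genes named were the receptors past 2-fold, expressed receptors of the AXL, RON, FGF, insulin, Eph and discoidin families as examples, and up to 6 genes per partner list with the largest inhibitor ratios past 2-fold. Receptors of other families, and ligands that fell short of 2-fold under an alternative, were also named, outside this rule. The scripts were tested on simulated data with spot noise only. The members and lists were chosen with earlier results of these data known. Promoter sequences are from RefSeq on GRCh38.p14, and FGFR1 and FLT4 had no entry. One of the blood cell markers is not reported here.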

Additional observations from a re-analysis of the deposited data

Results flagged for a closer look

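For DDR2 the log2 ratio was -1.09 under the inhibitor and 0.456 under the siRNA, and for ALK it was -1.38 and 0.155. With scaling to the probes well above background the siRNA ratio was 0.156 for DDR2 and -0.146 for ALK, so that the opposite direction of ALK depended on the scaling. With 1 array per condition the difference between the treatments was not tested, and both signals were dim with PHA665752. A second FGFR2 probe (A_24_P206624), which did not stand for its gene, was well above background on the MET siRNA array only, with a signal of 82.9 against 2.07 with sc siRNA. The bound on its log2 ratio was 2.971, or at least 7.84-fold higher, while the other FGFR2 probe, designed on the same transcript accession, had a signal of 10.00 with MET siRNA and was not well above background there.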

How the results depend on the processing

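No paired analysis was possible because each condition has 1 array. Of 14 receptor ratios past 2-fold in the 3 comparisons, 0 changed sign under 9 alternatives, and 4 stayed past 2-fold under each of them, those of INSR, PDGFRB, EPHA2 and EPHA4 with PHA665752. Of 35 ratios of partner and marker genes past 2-fold in the 2 treatments, 0 changed sign and 21 stayed past 2-fold under each alternative. The 50th percentile and the median of probes well above background shift all ratios of a comparison equally. Those shifts were smaller than 2-fold, so these settings could not reverse any of these signs. The 2 other filters on dim probes could not alter the 14 receptor ratios, whose probes were well above background on both arrays of the pair. INSR, PDGFRB, EPHA2 and EPHA4 had 1 probe each, so the median over probes could not alter their ratios either. The count of receptors lower with PHA665752 was 4 with normexp and 5 with the median over probes instead of 7, and 8 with the 50th percentile, quantile normalization and the median of probes well above background. The inhibitor median of 0.070 became -0.176 with the 50th percentile, -0.177 with quantile normalization and -0.0242 with the median of probes well above background. With MET siRNA, the counts higher and lower, 2 and 1, became 0 and 2 with the median of probes well above background and 0 and 0 with normexp, and the former moved the receptor median from -0.029 to -0.329. Between the controls the count lower, 1, became 2 with the 50th percentile, 2 with quantile normalization and 2 when dim probes were kept, and 0 with normexp and 0 with the median over probes, and the median of -0.0971 became -0.196 with the 50th percentile and 0.0341, a reversed sign, with normexp. The median of all genes moved by -0.245 for the inhibitor with the 50th percentile, by -0.296 for the siRNA with the median of probes well above background and by 0.13 for the inhibitor without the dim filter. Of all genes past 2-fold, the share higher went from 62.0% to 42.5% with the inhibitor under the 50th percentile, from 74.5% with the siRNA to 40.2% under the median of probes well above background and to 62.8% without the dim filter, and from 71.5% to 84.3% between the controls under normexp. Under the 50th percentile and the median of probes well above background, the shares moved with the equal shift of all ratios. The cause of those shifts, and of the other changes, was not tested. The normexp alternative also started from the median spot signal and added an offset, so background correction alone cannot be told apart there. Under it the inhibitor ratios were -2.33 for EPHA2, -0.16 for DDR2 and -0.40 for ALK.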
